A study of Rattus norvegicus with 12 samples.

Results

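The enzymes that inactivate estrogen were followed in RNA from the corpus luteum (CL) of pregnant Wistar rats. They were Cyp1b1, Cyp1a1, Hsd17b2, Hsd17b4 and Sult1e1, taken by gene symbol from the array's annotation, and all 5 were measured among 14514 named genes. The rule took the probe set with the highest mean where a gene had several, but each of the 5 had only 1. The low Cyp1b1 level with estradiol was known when these genes were proposed, so Cyp1b1 in any comparison that includes the AI or AI+E2 arrays is a description without a test.

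The 12 arrays fell into 4 groups of 3 animals, 1 animal per array. The AI+E2 group received anastrozole, an aromatase inhibitor (AI), orally at 1 mg/kg body weight daily for 4 days from day 12 of pregnancy, with estradiol (E2) subcutaneously at 10 µg per day, and CL were taken on day 16. The AI group received the inhibitor alone over the same days. The VEH group received the ethanol-containing vehicle over the same days, and CL of the Day12 group were taken on day 12 without treatment. The inhibitor was given to the whole animal, and E2 was given as an injection, so neither treatment acted on the CL alone. In every comparison with Day12, day of pregnancy and treatment cannot be told apart.

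Estradiol is removed from a tissue along several routes. Cytochromes P450 of family 1 hydroxylate its A ring to catechol estrogens, which are then methylated or, once oxidised to quinones, conjugated with glutathione. Oxidative 17-beta-hydroxysteroid dehydrogenases turn estradiol into the weaker estrogen estrone. Sulfotransferases and glucuronosyltransferases attach sulfate or glucuronic acid, which keeps the steroid from binding its receptor and lets transporters carry it out of the cell. The rat CL of the second part of pregnancy makes much estradiol itself, through aromatase (Cyp19a1).

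Values are log2 levels after RMA, a method that corrects background, normalizes arrays to a common distribution and summarises the probes of a gene. A difference of 1 is a 2-fold change, and levels of different genes are not comparable, because probes differ in their response. Medians of the arrays lay between 6.51 and 6.56. The steroidogenic genes Star, Cyp11a1 and Lhcgr that mark luteal cells averaged 12.73, 12.76 and 12.46, and the liver marker Alb averaged 5.34. These levels, and the ranks among genes given below, describe probe signal and not abundance. Differences were tested with limma across all named genes, and a gene was called at a Benjamini-Hochberg adjusted p under 0.05. In bulk tissue, fewer cells of a type and less RNA per cell cannot be told apart.

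RefSeq promoter sequences of rat assembly GRCr8 were at hand for Cyp1b1, Hsd17b4 and Sult1e1. The 250 bases upstream of the start site that RefSeq's promoter table uses are shown for Cyp1b1 and Hsd17b4, the members whose levels differed between treatments, with capitals marking GCGTG on either strand, the core bound by the aryl hydrocarbon receptor (Ahr), the textbook inducer of family 1 P450s. The Hsd17b4 start site is the first base of the annotated gene, whereas that of Cyp1b1 lies 638 bases inside it, the gene being annotated from chr6:21093927, so its window lies within the gene. The start site of Sult1e1 lies 1036 bases inside its annotated gene, so its window, which is not shown, also lies within the gene.
Cyp1b1 (chr6:21094315-21094564, plus strand): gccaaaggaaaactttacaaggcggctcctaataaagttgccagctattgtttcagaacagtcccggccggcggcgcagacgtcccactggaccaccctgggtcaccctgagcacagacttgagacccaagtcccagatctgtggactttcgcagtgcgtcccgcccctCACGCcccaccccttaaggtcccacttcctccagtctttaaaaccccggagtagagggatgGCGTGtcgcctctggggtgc
Hsd17b4 (chr18:45515177-45515426, plus strand): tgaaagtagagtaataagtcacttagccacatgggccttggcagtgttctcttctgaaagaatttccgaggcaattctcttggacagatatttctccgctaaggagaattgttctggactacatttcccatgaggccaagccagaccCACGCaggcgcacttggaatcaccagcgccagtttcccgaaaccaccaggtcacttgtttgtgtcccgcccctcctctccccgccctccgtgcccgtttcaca

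The Cyp1b1 window held GCGTG 2 times, beginning 81 and 20 bases before the start site, and the Hsd17b4 window 1 time, 103 bases before it. Of 33469 rat promoter windows of the same length, 25.9% held GCGTG on some strand. The longer core TNGCGTG, which contains GCGTG, occurred 1 time for Cyp1b1 and in 4.09% of windows. GGTCA, the unit that an estrogen response element repeats on both strands, occurred 1 time in each of the Cyp1b1, Hsd17b4 and Sult1e1 windows and in 35.4% of all windows. AGGTCA, which contains GGTCA, occurred 1 time each for Hsd17b4 and Sult1e1 and in 14.1% of windows. These matches describe the letters only.

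Cyp1b1, a hydroxylase that forms 4-hydroxyestradiol, had a high level in AI-treated CL and a low level in the other 3 groups. Its levels were 6.20, 6.19 and 6.29 in AI+E2 CL, 8.56, 8.71 and 8.08 in AI CL, 6.10, 6.21 and 6.27 in VEH CL, and 6.46, 6.70 and 6.63 in Day12 CL. The 3 AI arrays lay above the other 9. With 3 arrays per group, 31.4% of all genes did not overlap between AI and VEH, 31.4% between AI+E2 and AI, and 20.8% between AI and Day12. Group means were 6.23 ± 0.058 in AI+E2, 8.45 ± 0.33 in AI, 6.19 ± 0.087 in VEH and 6.60 ± 0.13 in Day12 (SD over 3 arrays each).

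**Figure D1:**
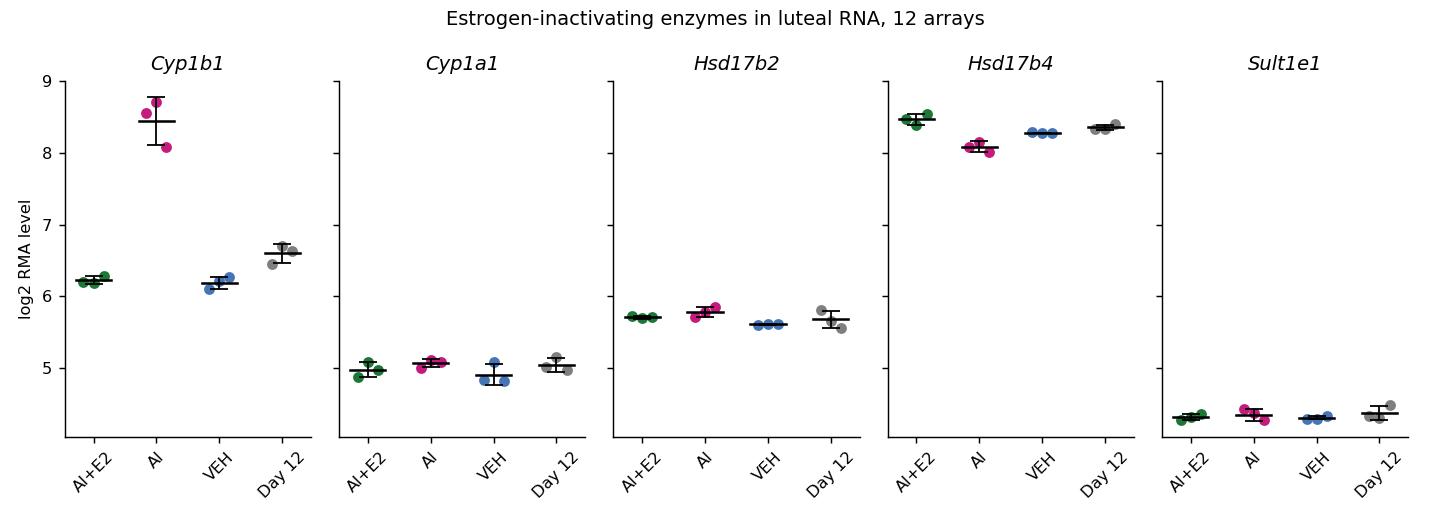
Log2 RMA level (vertical axis) of the 5 enzymes in AI+E2, AI, VEH and Day 12 CL. Points are arrays (3 per group), the wide bar is the group mean and the whiskers are ± 1 SD. Cyp1b1 in AI CL (8.08 to 8.71) stands apart from its other arrays (6.10 to 6.70), Hsd17b4 is lowest in AI CL (8.01 to 8.16), and the other enzymes span at most 0.34.

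Between AI and VEH CL the difference of Cyp1b1 was 2.26 (SE 0.12), a 4.79-fold higher level in AI, the 13th highest difference among 14514 genes. Between AI+E2 and AI CL it was -2.22 (SE 0.12), a 4.67-fold lower level in AI+E2 and the 5th lowest difference. For scale, 0.475% of genes were called at 2-fold or more higher in AI than in VEH, and 0.303% at 2-fold or more lower in AI+E2 than in AI. The choice of this gene used these values. Leaving out each array in turn gave the first difference between 2.13 and 2.44 and the second between -2.41 and -2.09.

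With estradiol added to the inhibitor, the arrays overlapped those of vehicle. The difference between AI+E2 and VEH was 0.04, a description without a test, while 13% of all genes were called in that comparison. Cyp1b1 was lower in VEH than in Day12 CL by a difference of -0.41 (95% interval -0.66 to -0.15, limma, adjusted p = 0.0449), the only member among the 5 called there, against 10.1% of all genes. That call was fragile: it remained without AI replicate 2 or AI replicate 3 (adjusted p = 0.0226 and 0.00267), and the other 10 fits that left out 1 array gave -0.47 to -0.35 with adjusted p of 0.0501 to 0.157. The methods' t-test also ended it (adjusted p = 0.187). The AI arrays are not in VEH against Day12, but they enter the limma test, whose variance was estimated over all 12 arrays. Between AI+E2 and Day12 the difference was -0.37, again a description without a test. For scale, 12.1% of all genes were called in that comparison. The order of the means was AI, Day12, AI+E2, VEH, and the last 2 overlapped.

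Markers of several cell types also differed between groups. In AI against VEH, 10 of 11 endothelial markers fell, with summed linear levels of 4860 to 5640 in AI CL and 7260 to 7480 in VEH CL, and 5 of 11 smooth muscle and pericyte markers fell (6620 to 7790 in AI, 7780 to 9510 in VEH). Macrophage markers rose in 4 of 12 (4460 to 6170 in AI, 4140 to 5020 in VEH), and luteal cell markers in 6 of 8, with 1 that fell (31600 to 33000 in AI, 26500 to 27600 in VEH). Between AI+E2 and AI, where Cyp1b1 differed about as much, 1 endothelial marker rose (5260 to 5570 in AI+E2, 4860 to 5640 in AI), and 0 of 11 smooth muscle and pericyte markers were called (0 at an unadjusted p under 0.05 by limma or the methods' t-test). Of 5 red blood cell markers, 2 fell (1070 to 1180 in AI+E2, 1860 to 2470 in AI). Of 10 genes listed as lymphocyte markers 3 rose, Ptprc by 0.58, Cd3g by 0.32 and Cd4 by 0.26, and 7 were not called. Of the 10, 5 rises had an unadjusted p under 0.05 by limma. Summed levels did not overlap (1430 to 1530 in AI+E2, 1190 to 1300 in AI). Cd4 and Ptprc had the highest means of the 10 (8.55 and 8.22) and weigh most in these sums. Whether these genes mark lymphocytes alone was not tested. In AI against VEH, 0 of the 10 were called (limma). There 1 had an unadjusted p under 0.05, and 0 were called by the methods' t-test. Of 12 macrophage markers, 1 rose in AI+E2 against AI, C1qa by 0.34 (5890 to 6100 in AI+E2, 4460 to 6170 in AI). Of 8 luteal cell markers 2 rose in AI+E2 against AI, Akr1c3 by 2.52 and Prlr by 0.59 (32500 to 33100 in AI+E2, 31600 to 33000 in AI). In AI+E2 against VEH, where Cyp1b1 differed by 0.04, 7 of 11 endothelial and 4 of 11 smooth muscle and pericyte markers fell (limma). There 5 of 12 macrophage and 4 of 8 luteal cell markers rose. Of 10 fibroblast markers, 4 were called higher and 5 lower in AI+E2 CL than in VEH CL (limma). The methods' t-test called 1 of them higher and 1 lower. Their summed levels were 4720 to 4900 in AI+E2 CL, 4150 to 4870 in AI CL and 4030 to 4810 in VEH CL. Between AI and VEH, limma called 1 fibroblast marker higher and 2 lower. Between AI+E2 and AI it called 1 higher and 0 lower. Summed endothelial levels in Day12 CL were 5090 to 5770. The part of these cell types in the result for Cyp1b1, and in those of the other genes below, was not tested.

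Cyp1a1, the classical Ahr-induced enzyme of the same family, had a low signal and was called in none of the 6 comparisons (limma). Its levels were 4.88, 5.09 and 4.97 in AI+E2 CL, 5.0, 5.11 and 5.09 in AI CL, 4.83, 5.08 and 4.82 in VEH CL, and 5.01, 5.16 and 4.97 in Day12 CL. The groups overlapped in all 6 comparisons. Its means had the same order as those of Cyp1b1 (AI, Day12, AI+E2, VEH), within a range of 0.16, and its overall mean of 5.0 exceeded only 7.9% of genes. The difference between AI and VEH was 0.16 (95% interval -0.01 to 0.33, limma, adjusted p = 0.226). Between AI+E2 and AI it was -0.09 (95% interval -0.26 to 0.08, limma, adjusted p = 0.554). At such a low signal an array compresses differences, so a rise of the transcript could go unseen.

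Of 7 other measured P450s that hydroxylate estrogens, including Cyp1a2, 0 rose and 0 fell in AI against VEH, AI+E2 against AI and AI+E2 against VEH (limma). None had an unadjusted p under 0.05 there by limma or by the t-test of the study's methods. Apart from Cyp1a2 (6.41 in VEH CL), these P450s had group means of at most 4.87, below those of Cyp1a1. At such a low signal a change in them could go unseen. The median difference of these 7 genes between AI and VEH was 0.04, beside 0.01 over all genes. Counts over this and the lists below can be read against all genes, of which 5.92% were called higher and 11% lower in AI against VEH, and 8.65% higher and 4.15% lower in AI+E2 against AI. The methods' t-test was stricter: of the other pathway genes that limma called, it called 6 of 23 in AI against VEH, 11 of 20 in AI+E2 against AI and 5 of 19 in AI+E2 against VEH.

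The Ahr itself, a ligand-activated transcription factor, was at 6.26, 6.12 and 6.08 in AI+E2 CL, 6.08, 6.05 and 6.03 in AI CL and 6.12, 6.01 and 6.13 in VEH CL, and its difference between AI and VEH was -0.04 (95% interval -0.18 to 0.10, limma, adjusted p = 0.774). Its repressor Ahrr and its target Nqo1 differed by 0.06 and 0.04 between AI and VEH (adjusted p = 0.512 and 0.726). The dimerization partner Arnt was at 9.32, 9.18 and 9.39 in AI+E2 CL, 9.46, 9.48 and 9.28 in AI CL and 9.07, 8.88 and 8.97 in VEH CL. Arnt was thus higher in AI than in VEH without overlap, by 0.43 (limma, adjusted p = 0.000703), and also in AI+E2 than in VEH, by 0.32 (adjusted p = 0.00894), calls that the methods' t-test did not make (0.0807 and 0.145). Of 11 genes on the Ahr list other than the members, 3 rose in AI against VEH, the others being the chaperones of the unliganded receptor Ptges3 (0.49) and Hsp90ab1 (0.30), and 0 fell (0 at an unadjusted p under 0.05, by limma or the methods' t-test). Estradiol added to AI was accompanied by 2 falls, Ptges3 by 0.45 and Hsp90ab1 by 0.22 on the log2 scale, and Nfe2l2, a regulator of antioxidant genes, rose by 0.29. The Hsp90ab1 fall was not called without any 1 of the 3 AI+E2 arrays, AI replicate 1 or AI replicate 2.

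**Figure D2:**
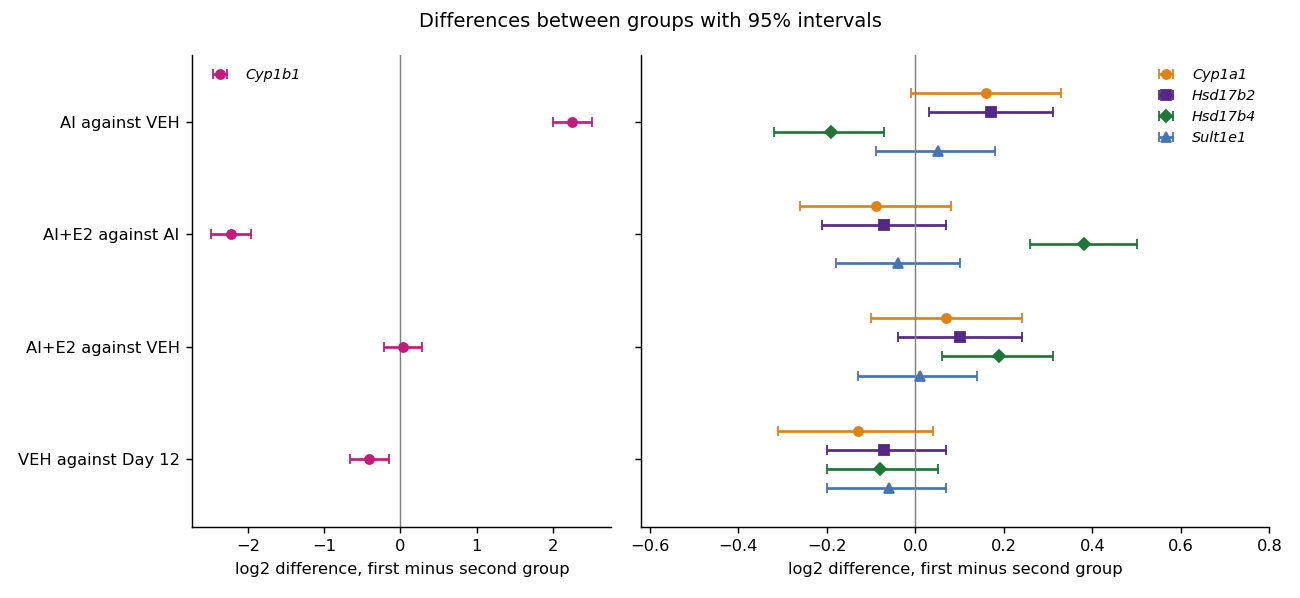
Log2 differences of the 5 enzymes (horizontal axis, first minus second group) for 4 comparisons, with 95% intervals from limma. For Cyp1b1, intervals in comparisons with AI or AI+E2 arrays accompany the difference as a description and are not a test, because its choice used those values. The left panel shows Cyp1b1 on a wider scale than the right panel, where the Hsd17b4 interval lies apart from 0 in AI+E2 against AI (0.26 to 0.50) and the intervals of Cyp1a1, Hsd17b2 and Sult1e1 include 0, except Hsd17b2 in AI against VEH (0.03 to 0.31), whose adjusted p was 0.0895.

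Hsd17b2, a microsomal enzyme that oxidises estradiol to estrone and testosterone to androstenedione, was low and varied little. Its levels were 5.73, 5.70 and 5.71 in AI+E2 CL, 5.72, 5.78 and 5.85 in AI CL, 5.60, 5.62 and 5.62 in VEH CL, and 5.81, 5.66 and 5.56 in Day12 CL. The 3 VEH arrays lay below those of both AI+E2 and AI, but the Day12 arrays overlapped all 3 of these groups. The difference between AI and VEH was 0.17 (95% interval 0.03 to 0.31, limma, adjusted p = 0.0895), and between AI+E2 and VEH it was 0.10 (95% interval -0.04 to 0.24, limma, adjusted p = 0.392). Arrays that do not overlap are no rarity with 3 per group: 31.4% of genes were so between AI and VEH and 29.4% between AI+E2 and VEH.

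Hsd17b4, the peroxisomal multifunctional protein, oxidises estradiol and also carries out the hydration and dehydrogenation steps of peroxisomal beta-oxidation. It was the most strongly hybridising member, above 80.5% of genes, and its AI level was the lowest of the 4, where that of Cyp1b1 was the highest. Day12 and AI+E2 had means above VEH for both genes. Levels were 8.47, 8.39 and 8.54 in AI+E2 CL, 8.09, 8.16 and 8.01 in AI CL, 8.29, 8.28 and 8.28 in VEH CL, and 8.34, 8.34 and 8.40 in Day12 CL. The AI arrays lay below all others, and the AI+E2 arrays lay above those of AI and VEH.

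In AI+E2 against AI, Hsd17b4 rose by 0.38 (SE 0.058, 1.30-fold, limma, adjusted p = 0.000356), and 12.8% of all genes were called in that comparison (8.65% higher). The call remained in all 12 fits without 1 array, with differences of 0.34 to 0.42 and adjusted p of at most 0.00318. Against Day12, the AI level was lower by a difference of -0.27 (limma, adjusted p = 0.00985, 7.59% of genes called), which also remained in those 12 fits (highest adjusted p = 0.047). The methods' t-test ended both calls (adjusted p = 0.0528 and 0.159).

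Hsd17b4 fell in AI against VEH by 0.19 on the log2 scale (1.14-fold, limma, adjusted p = 0.0331), where 17% of all genes were called and 11% called lower. In AI+E2 against VEH it rose by 0.19 (1.14-fold, limma, adjusted p = 0.0469), where 6.11% of genes were called higher. Both calls lay near the threshold, and each was lost without some single arrays, including arrays of groups outside the comparison. The first was lost without AI+E2 replicate 1, AI replicate 1, AI replicate 3 or any 1 VEH array (differences of -0.19 to -0.16, adjusted p of 0.0524 to 0.138). The second was lost without AI+E2 replicate 1, AI+E2 replicate 3, AI replicate 1, Day12 replicate 1 or any 1 VEH array (0.15 to 0.19, adjusted p of 0.0565 to 0.184). The SD of Hsd17b4 was 0.072 in AI+E2 CL, 0.073 in AI CL and 0.0031 in VEH CL.

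The other genes of peroxisomal fatty acid oxidation moved in both directions in AI against VEH, mostly down. Of 14 measured, 6 fell: the carnitine octanoyltransferase Crot by 0.57, the fatty acid transporter Abcd3 by 0.49, the bifunctional enzyme Ehhadh by 0.39, the dienoyl-CoA isomerase Ech1 by 0.36, the sterol carrier thiolase Scp2 by 0.34 and the phytanoyl-CoA hydroxylase Phyh by 0.25 on the log2 scale (limma, adjusted p of at most 0.0168). None of the 6 was called by the methods' t-test after adjustment, although 6 falls in the list had an unadjusted p under 0.05 by it. One gene, the lyase Hacl1, rose by 0.23, a call lost without AI replicate 2, AI replicate 3, VEH replicate 2 or VEH replicate 3. The median over the list was -0.15, beside 0.01 over all genes. Between AI+E2 and AI, 4 rose, namely Ech1 by 0.52, Phyh by 0.35, Abcd3 by 0.34 and Scp2 by 0.30, and 0 fell (0 at an unadjusted p under 0.05 by limma, and 1 by the methods' t-test after adjustment). That list's median was 0.14, beside -0.02 over all genes.

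Among the other C17 dehydrogenases of the oxidative kind, 0 of 4 were called in AI against VEH (limma; 1 was higher at an unadjusted p under 0.05, 0 by the methods' t-test after adjustment, and 1 was called higher without VEH replicate 1). Hsd17b6 fell by 0.30 in AI+E2 against AI, a call lost without AI+E2 replicate 1 or AI replicate 1 and by the methods' t-test (adjusted p = 0.0968), and 2 falls were called without AI replicate 3. On the opposite side of the balance, Cyp19a1, the inhibitor's target, was at 11.30, 11.25 and 11.27 in AI+E2 CL, 11.74, 11.86 and 11.85 in AI CL and 12.08, 12.09 and 12.11 in VEH CL. It fell by 0.27 in AI against VEH, by 0.54 in AI+E2 against AI and by 0.82 in AI+E2 against VEH on the log2 scale (limma, adjusted p = 0.00452, 1.59e-05 and 3.07e-07), and the 3 day 16 groups did not overlap. Of the reductive enzymes that form estradiol, Hsd17b12 rose by 0.40 in AI against VEH (limma, adjusted p = 0.00494, methods' t-test 0.0796). Hsd17b7 fell by 0.21 there on the log2 scale (limma, adjusted p = 0.0251, methods' t-test 0.148), a call lost without AI replicate 1, AI replicate 3, VEH replicate 2 or VEH replicate 3.

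Sult1e1, the sulfotransferase with the highest affinity for estradiol, did not differ past the threshold in any of the 6 comparisons. Its levels were 4.27, 4.32 and 4.36 in AI+E2 CL, 4.43, 4.37 and 4.27 in AI CL, 4.29, 4.29 and 4.33 in VEH CL, and 4.33, 4.30 and 4.49 in Day12 CL. All groups overlapped, and its mean of 4.34 exceeded only 1.1% of genes. Differences were 0.05 between AI and VEH (95% interval -0.09 to 0.18, limma, adjusted p = 0.687) and -0.04 between AI+E2 and AI (95% interval -0.18 to 0.10, adjusted p = 0.76). A level this close to the floor of the array, where the lowest value was 3.68, does not show whether the transcript is present.

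Genes that supply activated sulfate did differ. Papss2, a synthase of PAPS, the sulfate donor of every sulfotransferase, was at 7.55, 7.58 and 7.72 in AI+E2 CL, 8.52, 8.64 and 8.40 in AI CL, 6.78, 6.44 and 6.28 in VEH CL, and 6.92, 6.84 and 6.94 in Day12 CL. The 3 day 16 groups did not overlap. Papss2 rose by 2.02 in AI against VEH (SE 0.10, 4.06-fold, limma, adjusted p = 2.34e-09) and fell by 0.90 in AI+E2 against AI (1.87-fold, adjusted p = 2.02e-05), yet stayed 1.12 above VEH in AI+E2 CL (adjusted p = 2.84e-06). Its AI+E2 level thus lay between those of AI and VEH, whereas that of Cyp1b1 lay at VEH.

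Sult1a1, the phenol sulfotransferase, was at 8.29, 8.24 and 8.37 in AI+E2 CL, 8.38, 8.57 and 8.59 in AI CL and 7.48, 7.79 and 7.62 in VEH CL. It rose by 0.88 in AI against VEH (limma, adjusted p = 7.22e-06) and by 0.67 in AI+E2 against VEH (adjusted p = 0.000177), with -0.21 between AI+E2 and AI (adjusted p = 0.169). Papss1, the other PAPS synthase, and Slc35b2, which carries PAPS into the Golgi, had differences of -0.39 and -0.31 between AI and VEH (limma, adjusted p = 0.00148 and 0.00378). In all, 2 of the 15 measured sulfation genes other than Sult1e1 rose and 2 fell in AI against VEH, with a median of 0.04. Papss2 was the only one that fell in AI+E2 against AI, and 0 rose (1 at an unadjusted p under 0.05, 0 by the methods' t-test after adjustment), with 1 rise called without VEH replicate 1 or VEH replicate 3. Several of the other sulfotransferases had group means of at most 5.19, where a change could go unseen.

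**Figure D3:**
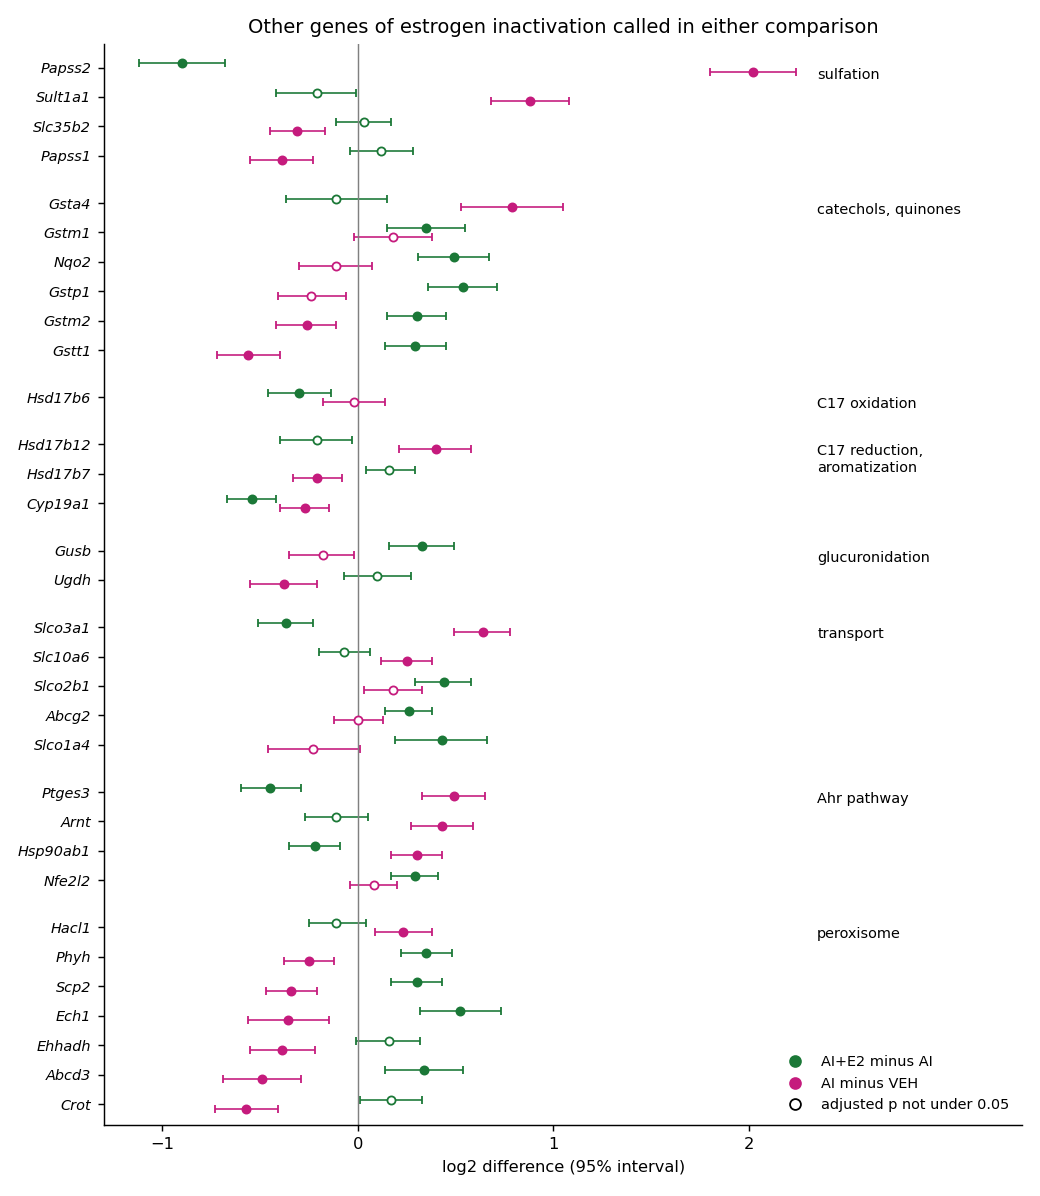
Log2 differences with 95% intervals (horizontal axis) of the 32 other pathway genes called in AI against VEH or AI+E2 against AI, grouped by role. Filled points have an adjusted p under 0.05 and open points do not. Papss2 stands out in the sulfation group (2.02 in AI minus VEH, -0.90 in AI+E2 minus AI), and 6 of the 7 peroxisomal genes lie below 0 in AI minus VEH.

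Genes that act after catechol formation were called in both comparisons, which share the AI arrays. Of 7 genes for catechol and quinone removal, Gsta4 rose by 0.79 in AI against VEH, and Gstt1 and Gstm2 fell by 0.56 and 0.26 on the log2 scale. These genes encode glutathione transferases, and 1 fall was called without AI replicate 1 or VEH replicate 1. Of the 7, 5 rose in AI+E2 against AI: Gstp1 by 0.54, the quinone reductase Nqo2 by 0.49, Gstm1 by 0.35, Gstm2 by 0.30 and Gstt1 by 0.29 (limma, adjusted p of at most 0.0215). Only 3 were called without AI+E2 replicate 1, AI+E2 replicate 3 or AI replicate 1, and 0 fell (0 at an unadjusted p under 0.05 by limma or the methods' t-test).

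Of the transporters of conjugated steroids, 4 of 12 were called in AI+E2 against AI, against 12.8% of all genes, and 2 of 12 in AI against VEH. Of 8 measured glucuronidation genes of 20 listed, Ugdh, which makes the glucuronic acid donor, fell by 0.38 in AI against VEH, and the deconjugating Gusb rose by 0.33 in AI+E2 against AI. The measured glucuronosyltransferases had group means of at most 4.9, so a change in them could go unseen. Among the transporters, the organic anion transporter Slco3a1 rose by 0.64 and the steroid sulfate importer Slc10a6 by 0.25 in AI against VEH. Slco3a1 fell by 0.37 on the log2 scale in AI+E2 against AI, the only fall called, and a second fall was called without AI replicate 3 or Day12 replicate 2. The other 3 calls were rises. Abcg2, an exporter of sulfated estrogens, rose by 0.26 in AI+E2 against both AI and VEH (limma, adjusted p = 0.00667 and 0.00614). The organic anion transporter Slco1a4 rose by 0.43 in AI+E2 against AI (limma, adjusted p = 0.0164), a call lost by the methods' t-test (0.192) and without AI+E2 replicate 1, AI+E2 replicate 3, AI replicate 1 or AI replicate 3. Slco2b1, an importer of estrone sulfate, rose by 0.44 in AI+E2 against AI and by 0.62 in AI+E2 against VEH (limma, adjusted p = 0.000462 and 1.96e-05). Its levels were 7.63, 7.49 and 7.5 in AI+E2 CL, 7.15, 7.14 and 7.02 in AI CL and 6.87, 6.86 and 7.03 in VEH CL, and the AI+E2 arrays lay above all others of day 16.

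The 5 enzymes did not vary as a unit. Over the 12 arrays Cyp1b1 and Hsd17b4 had a Pearson r of -0.781, which became 0.0322 over the 9 arrays without AI, so the opposition lay in the AI arrays. Arrays of a group share their treatment, and the values are descriptions. The other pairs of members had r between -0.375 and 0.533. The standard deviation over the 12 arrays exceeded that of 99.8% of genes for Cyp1b1 and 75.7% for Hsd17b4, against 52.9% for Cyp1a1, 32.1% for Hsd17b2 and 12.3% for Sult1e1.

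The genes most like Cyp1b1 by Pearson r over the 12 arrays were Svs5, a seminal vesicle secretory protein gene (0.996), the transcription factor gene Nfe2 (0.988), the splicing regulator gene Rbfox3 (0.986), fatty acid synthase Fasn (0.983) and the fetuin gene Fetub (0.981). Over the 9 arrays without AI these r were 0.895, 0.912, 0.683, 0.904 and 0.892, and the Day12 mean lay above those of AI+E2 and VEH for each. Svs5 was at 5.45, 5.53 and 5.45 in AI+E2 CL, 8.59, 8.81 and 8.0 in AI CL and 5.18, 5.31 and 5.32 in VEH CL. As for Cyp1b1, AI replicate 3 was the lowest of the AI arrays for each of these 5 genes. These genes were chosen by r over the same 12 arrays, so such resemblances follow largely from the choice. The genes most like Hsd17b4 were Tex2 (0.978), Abi1 (0.973), Tbck (0.971), Stk39 (0.959) and Gtf2b (0.959). For the dim members the closest genes had an r of 0.899 (Fitm1 with Cyp1a1), 0.914 (Sfswap with Hsd17b2) and 0.912 (Pygo2 with Sult1e1).

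**Figure D4:**
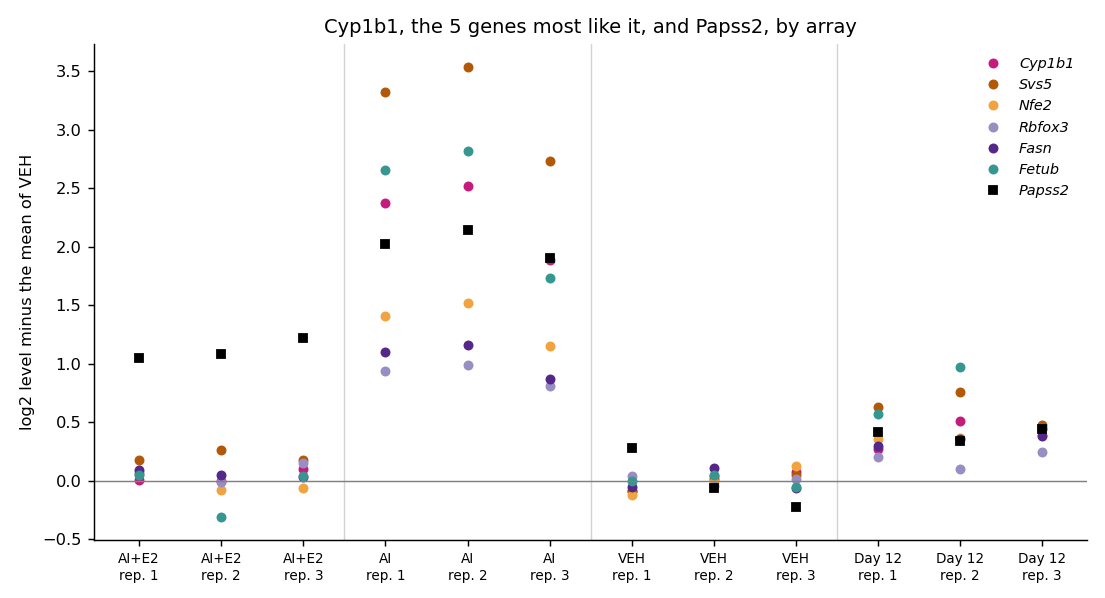
Log2 level minus the mean of the VEH arrays (vertical axis) for Cyp1b1, the 5 genes with the highest Pearson r to it, and Papss2, on each of the 12 arrays. Circles are Cyp1b1 and the similar genes, and squares are Papss2. Papss2 stays about 1.12 above VEH in AI+E2 CL, where Cyp1b1 differs from VEH by 0.04.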

How the data were processed

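Total RNA of CL from 12 rats was hybridised to Affymetrix Rat Gene 1.0 ST arrays. The deposited table holds log2 values that the authors made by RMA in R 2.12.2, for 29214 probe sets. Which arrays were normalized together and whether probe sets were filtered are not given in the sources used here. Replicates are separate animals, and precision is limited by 3 arrays per group.

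Probe sets were named through the platform annotation and RefSeq. Those with 1 symbol numbered 15316, 317 had several and 13581 none, and 3 (Cyp19a1 among them) were named from identifier pairs in the study's supplementary tables. The annotation gives Sult1e1 under 2 gene identifiers, of which RefSeq keeps 1. Of 14514 genes, 528 had several probe sets, and the one with the highest mean was kept. Group means were fitted with limma 3.58.1 (R 4.3.3) to all 12 arrays, with 8 residual degrees of freedom, moderated variances and Benjamini-Hochberg adjustment over all genes, and the fit was tested on simulated data. No filter on low values was used, so all 5 enzymes stayed in. Promoter windows of 250 bases came from RefSeq (GRCr8), which held 3 of the 5. Cyp1b1 was not tested in comparisons that include the AI or AI+E2 arrays. By rule the text could name the 5 enzymes, the genes of each pathway list called in a day 16 comparison, Cyp19a1 and the 5 genes most like each enzyme. For the dim enzymes the closest gene alone is given. The enzymes and lists were chosen with earlier results of these data known. There were 10 alternative settings, and 12 fits without 1 array.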

Additional observations from a re-analysis of the deposited data

How the results depend on the processing

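Of the tested differences of the 5 enzymes, refitted under 10 settings, 194 of 213 values kept their direction and their side of the threshold. Most of these differences were not called in the main fit, which raises that share. All 18 lost calls fell on the few differences that the main fit called, and 1 value gained a call. The untested differences of Cyp1b1 moved by less than 1 SD in all 45 refits. Cyp1b1 in VEH against Day12 lost its call with all probe sets tested (-0.41, adjusted p = 0.0979), arrays centred on their medians (-0.39, 0.0763), the methods' t-test (-0.41, 0.187) and a replicate block (-0.41, 0.0561). Hsd17b4 in AI against VEH lost its call with a further quantile normalization (-0.14, 0.0548), only the 2 groups (-0.19, 0.0627), the t-test (-0.19, 0.101), trend and robust settings (-0.19, 0.0679) and the replicate block (-0.19, 0.0628). In AI+E2 against VEH it lost it with all probe sets (0.19, 0.056), without the 25% dimmest genes (0.19, 0.0503), centred (0.19, 0.0642), with only the 2 groups (0.19, 0.0639), the t-test (0.19, 0.111), trend and robust settings (0.19, 0.0929) and the block (0.19, 0.0852). The t-test also ended its calls in AI+E2 against AI (0.38, 0.0528) and AI against Day12 (-0.27, 0.159), and called Hsd17b2 in AI+E2 against VEH (0.10, 0.0435). The cause was not tested.

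Without 1 array, Cyp1b1 ranged over -0.47 to -0.35 in VEH against Day12, and Hsd17b4 over -0.23 to -0.16 in AI against VEH and 0.15 to 0.22 in AI+E2 against VEH. Uncalled or untested values near 0 changed sign for Cyp1b1 in AI+E2 against VEH (-0.01 to 0.08), Cyp1a1 in AI against Day12 (-0.01 to 0.08), Hsd17b2 in AI+E2 against Day12 (-0.02 to 0.10) and Sult1e1 in AI+E2 against VEH (-0.01 to 0.03), AI against Day12 (-0.05 to 0.04) and AI+E2 against Day12 (-0.09 to 0.0).

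Counts over all genes depended on the test. The methods' t-test called 240 higher and 425 lower in AI against VEH, where limma called 859 and 1602. It called 499 and 265 in AI+E2 against AI (limma 1255 and 602), 289 and 277 in AI+E2 against VEH (887 and 1002), 33 and 24 in VEH against Day12 (1003 and 469), 20 and 25 in AI against Day12 (480 and 621) and 228 and 134 in AI+E2 against Day12 (1091 and 665). In VEH against Day12, quantile normalization gave 955 higher and 744 lower, and fitting only the 2 groups 659 and 257. Single arrays moved counts as well: higher calls in AI+E2 against AI were 825 without AI+E2 replicate 3, lower calls 390 without AI replicate 1, and higher calls in AI+E2 against VEH 564 without AI+E2 replicate 1. Same-numbered arrays of different groups did not deviate together (r of -0.486 to 0.339, and 0 arrays matched their own number best). The numbers thus gave no sign of pairing, and the labels do not state whether they pair animals. Probes near the floor limit what Cyp1a1, Hsd17b2 and Sult1e1 can show.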
